A study of Macaca fascicularis with 5 samples.

Results

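The genes described here encode subunits of the mitochondrial oxidative phosphorylation system in the dorsal lateral geniculate nucleus (dLGN) of the cynomolgus monkey. They were taken by symbol from the deposited table of transcript counts, namely the symbols that begin with NDUF followed by A, B, C, S or V, the SDH subunits, and those that begin with UQCR, COX4 to COX8 or ATP5, with assembly factors left out. The rule found 58 of 20576 symbols, in 106 of 62655 transcript rows, of which 39 were NDUF, 3 were SDH and 16 were ATP5 symbols. It found 0 UQCR and 0 COX symbols, because the table lists those genes, and SDHA, under locus numbers. Of the 58 members, 37 belong to complex I, 3 to complex II and 14 to complex V. NDUFA4 and its paralog NDUFA4L2 carry complex I names, although NDUFA4 is now placed in complex IV, and ATP5S and ATP5SL match the pattern without being subunits of the ATP synthase.

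Oxidative phosphorylation makes most of the ATP of a neuron. Complexes I and II pass electrons from NADH and succinate to ubiquinone, complexes III and IV pass them on to oxygen, and complex V, the ATP synthase, uses the proton gradient built on the way to make ATP. Most subunits are encoded in the nucleus and imported, and the rest are encoded in mitochondrial DNA. Complex I has a core of catalytic subunits surrounded by accessory subunits, and complex V has a catalytic head joined to a membrane part by a central and a peripheral stalk. In visual areas of primates, the activity of cytochrome oxidase (complex IV) has long been used as a stain that follows neuronal activity and falls in territory driven by a deprived eye. The comparison between deprived and control animals therefore asks whether the transcripts of these subunits differ after monocular deprivation.

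RNA was sequenced from 5 monkeys, 1 library each. Control-307, Control-317 and Control-331 came from untreated animals, and Deprivated-316 and Deprivated-326 from animals whose left eye was sutured. The labels give an age of 3 months for all 5 animals and a suture that lasted from 1 to 3 months of age, whereas the study's methods place collection 3 months after the suture. Only the left dLGN of the deprived animals was used, the right having given RNA of low quality. The control descriptions speak of mixed left and right nuclei, while their titles name the right side for Control-307 and Control-331 and the left for Control-317. No strain or genotype is given. Since the left eye was closed, the left dLGN holds layers of the deprived eye and layers of the open eye, and the libraries do not separate them.

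Total estimated counts were 9424975, 12966019 and 10084102 in the controls and 7607859 and 7391844 in the deprived libraries, and between 13613 and 14022 genes had at least 10 counts. Over all 14317 genes tested, the log2 CPM (counts scaled to library size) of Control-317 correlated with Control-307 at r = 0.849 and with Control-331 at r = 0.872, whereas Control-307 and Control-331 correlated at r = 0.952 and the deprived pair at r = 0.945. In what follows, the values of controls are given in the order Control-307, Control-317, Control-331 and those of deprived animals in the order Deprivated-316, Deprivated-326. Markers of thalamic relay neurons summed to 186, 1908 and 291 CPM in the controls and to 559 and 1094 CPM in deprived animals. Striatal markers summed to 6676, 330 and 6058 CPM in the controls against 1792 and 1468 CPM. Among the relay markers, TCF7L2, SLC17A6 and CACNA1G were at 476, 680 and 515 CPM in Control-317 but at 22.1, 16.5 and 17.8 CPM in Control-307, where RORA and PRKCD, at 52.5 and 51.6 CPM, made up most of the sum. The relay markers were thus low in the libraries with the highest striatal markers, and the sum does not show the labelled nucleus equally in every library. Control-317 stood apart from the other controls, so the comparisons below are also given without it, although the controls and deprived animals then also differ in the side that the titles name. Printed group means in the study's supplementary tables matched these libraries only when Control-317 and Deprivated-316 changed places, so results were also computed with that exchange.

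As a class the members were abundant. Their median level over all libraries was 49.3 FPKM (fragments scaled by transcript length and by library size), against 5.9 for all genes tested, and 46 of 58 members were at 10 FPKM or more in every library. Of the 100 symbols with the highest mean FPKM, 4 were members, and of the 500 highest, 16. All 58 passed the filter on low counts. The catalytic subunits of the ATP synthase led the list. ATP5B, the beta subunit, was at 262, 396 and 293 FPKM in the controls and at 247 and 274 FPKM in deprived animals. ATP5A1, the alpha subunit, was at 260, 391 and 271 FPKM in the controls and at 232 and 264 in the deprived libraries. In both genes Control-317 was above the other 4 libraries, which lay close together. NDUFA4 followed with a mean of 211 FPKM, ATP5O with 200 and ATP5E with 188. The highest mean in complex I was that of NDUFAB1, the mitochondrial acyl carrier protein, at 108 FPKM, followed by NDUFB5 at 88.2 and NDUFS3 at 77.7.

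**Figure D1:**
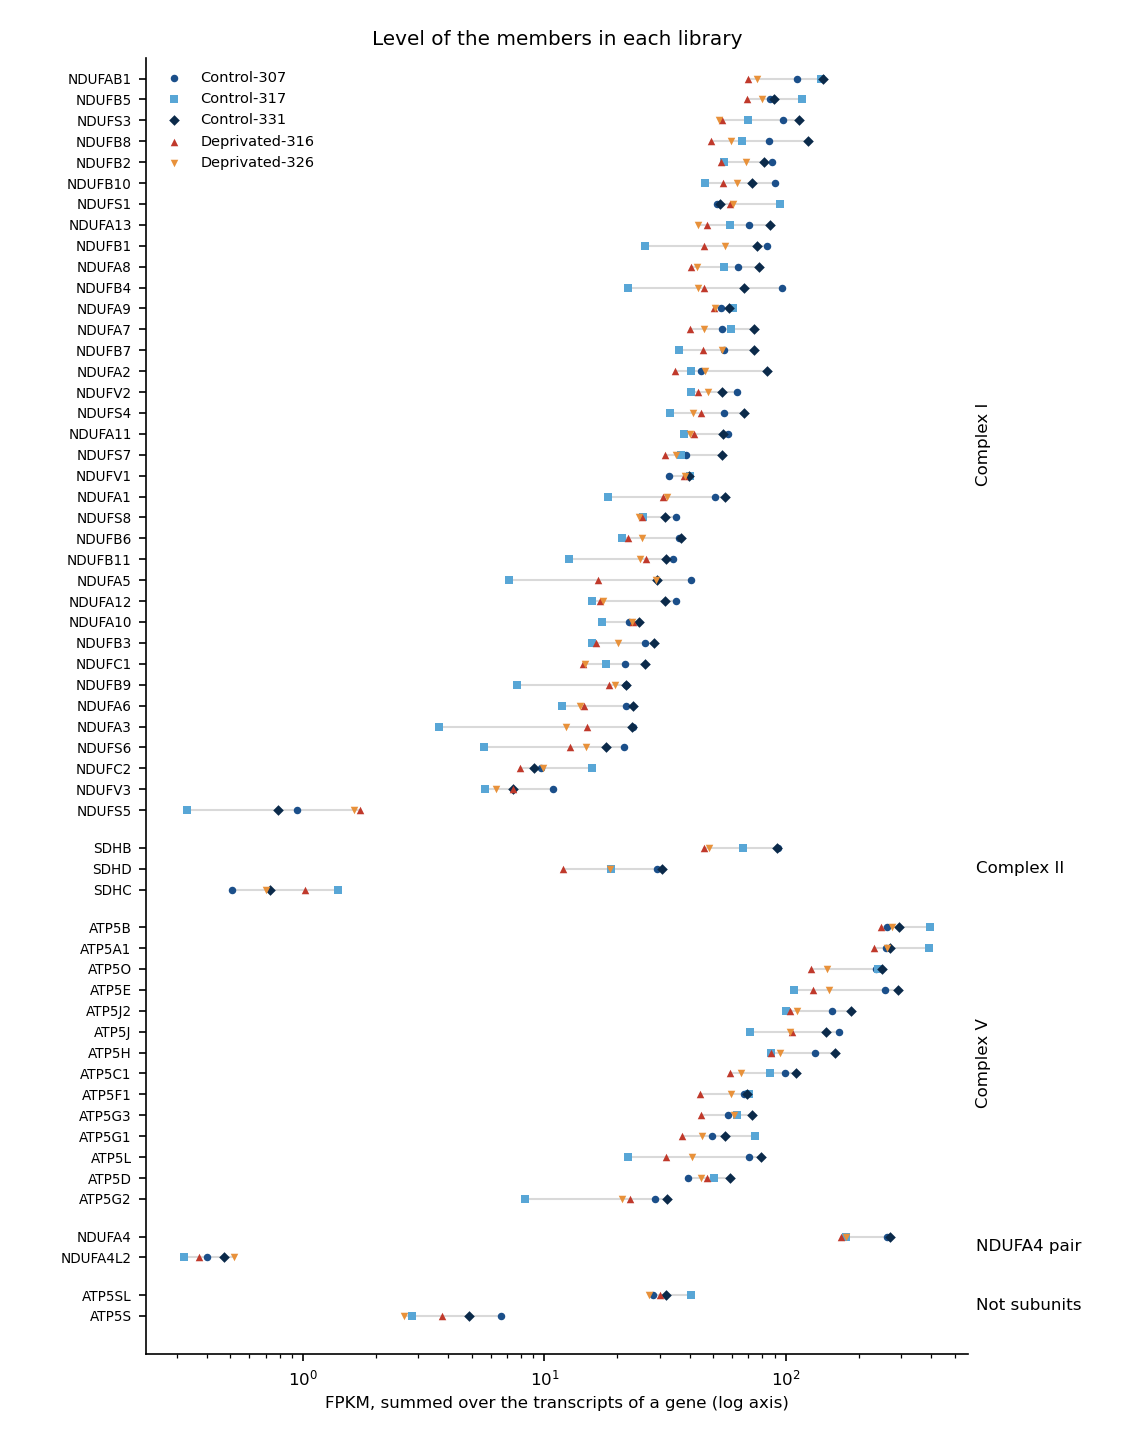
Level of 57 of the members in FPKM, each summed over its transcripts, on a log axis. Each row is a gene, each symbol 1 library and each grey line the range over the 5 libraries. ATP5B and ATP5A1 are the highest rows, at 294 and 283 FPKM on average, and NDUFA4L2 the lowest, at 0.42 FPKM.

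A few members were near the floor. NDUFA4L2 was between 0.32 and 0.52 FPKM, SDHC between 0.51 and 1.39 and NDUFS5 between 0.33 and 1.72. SDHC encodes a membrane anchor without which complex II cannot work. For SDHC the table holds other loci described as the same protein. LOC102127185 was at 97.0, 98.1 and 101.2 CPM in the controls and 56.4 and 67.8 in the deprived libraries, where SDHC itself was at 1.3, 3.7 and 1.8 and at 2.8 and 1.9 CPM. LOC102127751 was at 0.5, 24.5 and 17.0 CPM in the controls and 13.3 and 1.7 in the deprived libraries. LOC102134309, described as like that protein, was at 0 in every library. NDUFS5 has such a copy in LOC102143409, at 8.2, 2.2 and 7.4 CPM in the controls and 6.3 and 5.3 in the deprived libraries. The counts of these genes depend on how reads were divided between near-identical loci and are uncertain. LOC102127185 had no overlap between the groups, with a log2 fold change of -0.67 ± 0.19 (SE) and an edgeR adjusted p = 0.40. In LOC102127751 the groups overlapped, with a log2 fold change of -0.90 ± 1.46 (SE).

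Summed over all 58 members, the libraries held 6491, 6273 and 6784 CPM in the controls and 5015 and 5444 CPM in deprived animals. The means were 6516 ± 257 (SD, n = 3) and 5230 ± 304 (SD, n = 2), a ratio of 0.803, and the groups did not overlap. In Control-317 much of the sum came from ATP5A1 and ATP5B, which stood at 1206 and 1180 CPM there. When every member had the same weight, the mean log2 CPM was 5.99, 5.46 and 6.03 in the controls and 5.56 and 5.65 in the deprived libraries, and Control-317 was the lowest of the 5. As a share of all FPKM, the members took 1.87, 1.57 and 1.94 percent in the controls and 1.43 and 1.55 percent in the deprived libraries.

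The complexes did not follow 1 pattern. Complex I summed to 2554, 2067 and 2637 CPM in the controls and to 1932 and 2043 in deprived animals, with Control-317 next to the latter. Complex II summed to 220, 155 and 215 CPM against 110 and 126, the smallest ratio of means at 0.599. That sum rests on SDHB and SDHD, since SDHC was near the floor and SDHA and the other loci described as SDHC are outside it. Complex V summed to 3337, 3746 and 3560 CPM against 2686 and 2997, with Control-317 the highest of all. In a bulk sample a lower level can come from fewer cells of a type or from less RNA per cell, and these cannot be told apart.

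**Figure D2:**
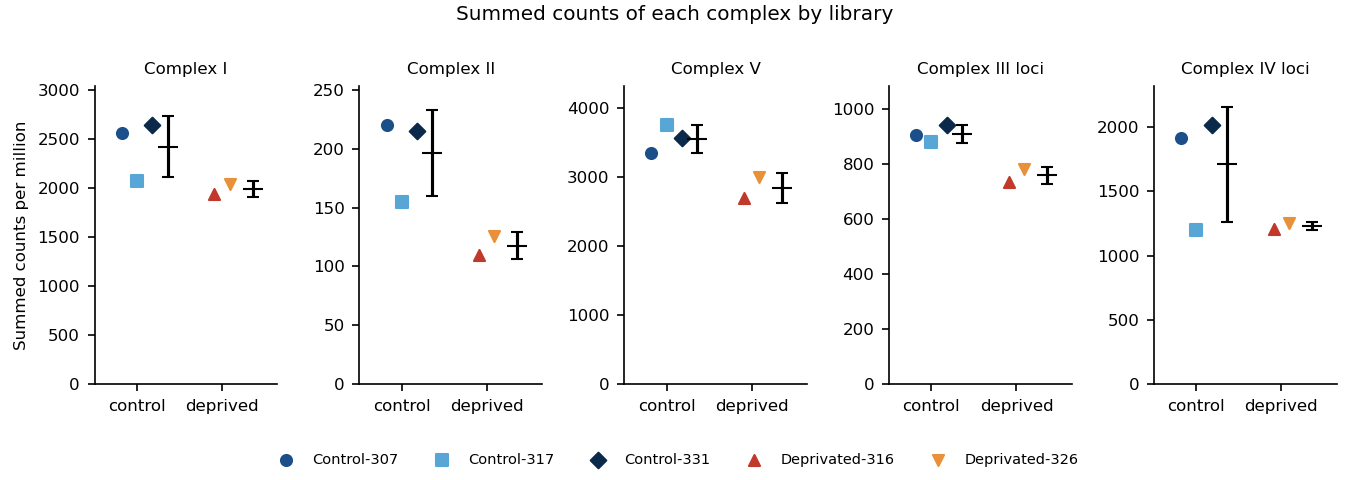
Summed CPM of the subunits of each complex in the 5 libraries, with the mean and SD of each group beside the points (n = 3 control, n = 2 deprived). Each panel starts at 0. The groups do not overlap for complexes I, II, III and V, and in complex IV Control-317, at 1197 CPM, lies below both deprived libraries.

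For single members, 0 of 58 passed an adjusted p of 0.05 in edgeR's quasi-likelihood test, as did 0 percent of all genes tested in either direction. At an unadjusted p under 0.05 there were 7 members lower in the deprived libraries and 0 higher, against 4.07 percent of all genes lower and 5.69 percent higher. The 7 became 28 without Control-317, 2 without Control-307, 2 without Control-331 and 0 with the exchange. The 4.07 and 5.69 percent apply to the fit with 5 libraries, and the background moved too. It is given here for single transcripts and not for gene totals. Of 31378 transcripts, 2480 were lower and 2719 higher at that level without Control-317, beside 24 and 0 of 82 member transcripts. With all 5 libraries these were 1002 and 1143 of 33469, beside 5 and 0 of 83. Lower transcripts numbered 903 of 31286 without Control-307, 747 of 31103 without Control-331 and 772 of 33469 with the exchange. On the lower side of 0 were 51 of 58 members, or 87.9 percent, where all genes had 55.1 percent, and 7 were on the higher side, where all genes had 44.9 percent. The median log2 fold change was -0.289 for the members and -0.06 for all genes. In 16 members every deprived library was below every control, and in 1, NDUFS5, every deprived library was above, against backgrounds of 15.5 and 15.2 percent of genes. The log2 fold changes ran from -0.78 in NDUFAB1 to 1.37 in NDUFS5, an accessory subunit of complex I that was at 1.0, 0.3 and 0.8 CPM in the controls and 1.9 and 1.7 in the deprived libraries. edgeR's exact test called 0 members, beside 0.203 percent of genes lower and 1.38 percent higher. DESeq2 called 1 member, ATP5O, beside 0.443 percent of genes lower and 1.69 percent higher.

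ATP5O encodes the oligomycin sensitivity-conferring subunit, at the top of the peripheral stalk. It was at 305.7, 310.3 and 313.2 CPM in the controls and at 171.4 and 195.7 CPM in deprived animals. The 3 controls were nearly equal and both deprived libraries were far below them. Its log2 fold change was -0.75 ± 0.19 (SE), with an adjusted p = 0.385 in edgeR and 0.0103 in DESeq2. With Control-317 and Deprivated-316 exchanged, its log2 fold change was -0.06.

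NDUFAB1, the acyl carrier protein, also serves lipoic acid synthesis and the assembly of iron-sulfur clusters. It was at 120.5, 149.4 and 148.7 CPM in the controls and 78.6 and 83.5 in the deprived libraries. Here too the groups stood clear of each other, with a log2 fold change of -0.78 ± 0.20 (SE) and adjusted p-values of 0.386 in edgeR and 0.0522 in DESeq2.

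Among the core subunits of complex I, NDUFS3 was the member with the smallest p. NDUFS3, a core subunit of the arm that projects into the matrix, was at 151.8, 107.9 and 170.4 CPM in the controls and at 88.4 and 83.7 in the deprived libraries, a log2 fold change of -0.74 ± 0.25 (SE) with an edgeR adjusted p = 0.466. NDUFS7, at 58.1, 55.5 and 79.7 CPM against 48.8 and 54.4, kept the groups apart by a narrow margin. NDUFV1 and NDUFS1 did not separate them. NDUFV1, which binds NADH and flavin, was at 85.6, 103.7 and 99.8 CPM in the controls and 102.5 and 101.5 in the deprived libraries, and its log2 fold change was 0.08 ± 0.18. NDUFS1, the large iron-sulfur subunit, was at 201, 365 and 200 CPM in the controls against 239 and 240, again with Control-317 apart from the rest. The 7 core members had a median log2 fold change of -0.262 and the 30 accessory members one of -0.249.

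The accessory subunits of complex I varied among the controls as well. NDUFA13, also known as GRIM-19, was at 114.6, 94.9 and 135.2 CPM in the controls and 80.0 and 72.2 in the deprived libraries, and NDUFA8 at 87.3, 75.3 and 102.5 against 57.96 and 60.3. Both had an unadjusted p under 0.05 and no overlap between groups. NDUFB9, by contrast, was at 58.8, 20.6 and 57.0 CPM in the controls and 52.4 and 54.2 in deprived animals, and Control-317 was the only library out of range. NDUFB11 had the same form, at 61.3, 22.6 and 55.5 CPM against 49.6 and 45.8. NDUFA10 was at 65.9, 50.03 and 69.8 CPM in the controls and 70.6 and 68.8 in the deprived libraries. NDUFB5, among the most abundant of complex I, was at 143.2, 193.6 and 144.5 CPM against 120.0 and 136.5, with a log2 fold change of -0.32 ± 0.23. Over complex I, 32 of 37 members were on the lower side, 4 at an unadjusted p under 0.05, where 4.07 percent of all genes were, and the median log2 fold change was -0.262. That median ran from -0.148 without Control-307 and -0.172 without Control-331 to -0.447 without Control-317, and the 4 became 1, 1 and 17 there. The 4.07 percent applies to the fit with all libraries and not to these changed counts. Of single transcripts, 903 of 31286, 747 of 31103 and 2480 of 31378 were lower at that level in the same fits. At an adjusted p under 0.05, 6 of the 37 were lower without Control-317, beside 3.68 percent of all genes.

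Complex II gave the lowest median, -0.719 over its 3 members by symbol. SDHB, the iron-sulfur subunit, was at 151.9, 108.1 and 145.5 CPM in the controls and at 78.3 and 80.7 in the deprived libraries. Its log2 fold change was -0.77 ± 0.22 (SE) with an edgeR adjusted p = 0.415. SDHD, the other membrane anchor, was at 67.0, 42.9 and 67.5 CPM in the controls and 28.4 and 43.4 in the deprived libraries, where Deprivated-326 and Control-317 were at the same level. SDHA, the flavoprotein that oxidizes succinate, was listed as LOC102126003 between 0.62 and 2.16 CPM, too low to be read.

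In complex V all 14 members were on the lower side, with a median of -0.344, and 4 of them had no overlap between groups, where 15.5 percent of all genes were lower without overlap. With the exchange, 9 of 14 were on the lower side and the median was -0.169. ATP5C1, the gamma subunit of the central stalk, was at 181.0, 146.5 and 192.1 CPM in the controls and at 110.6 and 119.3 in the deprived libraries, a log2 fold change of -0.59 ± 0.21 (SE) with an edgeR adjusted p = 0.474. The catalytic alpha and beta subunits were close to equal outside Control-317. ATP5A1 was at 809.9, 1206 and 812.2 CPM in the controls and at 751.1 and 837.4 CPM in deprived animals, and its log2 fold change over all 5 libraries was -0.25 ± 0.27. ATP5B, at 786.1, 1180 and 849.8 CPM in the controls and 772.5 and 842.2 in the deprived libraries, had one of -0.22 ± 0.26. The subunits of 1 complex that are needed in fixed proportion therefore gave unequal differences, such as -0.75 in ATP5O and -0.22 in ATP5B, and without Control-317 ATP5A1 and ATP5B were at -0.03 and -0.02; no test compared these members with each other.

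The c subunit, which forms the rotor ring in the membrane, is encoded by 3 genes that give the same mature protein. ATP5G3 took 42.5 to 48.2 percent of their summed FPKM in all libraries. ATP5G1 took 36.3, 51.2 and 34.9 percent in the controls and 35.5 and 35.4 percent in the deprived libraries. ATP5G2 took 21.2, 5.67 and 20.1 percent in the controls and 21.6 and 16.5 percent in the deprived libraries. In CPM, ATP5G2 was at 88.8, 25.3 and 95.9 in the controls and 72.4 and 65.9 in the deprived libraries. The balance of the 3 genes thus set Control-317 apart and gave overlapping groups. The log2 fold changes were -0.49 ± 0.26 for ATP5G1, -0.02 ± 0.57 for ATP5G2 and -0.22 ± 0.22 for ATP5G3.

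NDUFA4 was at 260.6, 174.9 and 259.4 CPM in the controls and 175.9 and 180.3 in deprived animals, and Control-317 shared the level of the latter. A locus described as the same protein, LOC102135073, was at 190.6, 68.1 and 233.1 CPM against 119.9 and 149.9. NDUFA4L2, known as a target of hypoxia signalling, made up 0.153 to 0.293 percent of the pair's FPKM. Of the members outside the complexes, ATP5S was at 39.1, 18.2 and 25.2 CPM in the controls and 22.9 and 19.2 in the deprived libraries, and ATP5SL at 77.0, 109.9 and 84.4 against 85.8 and 75.6.

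**Figure D3:**
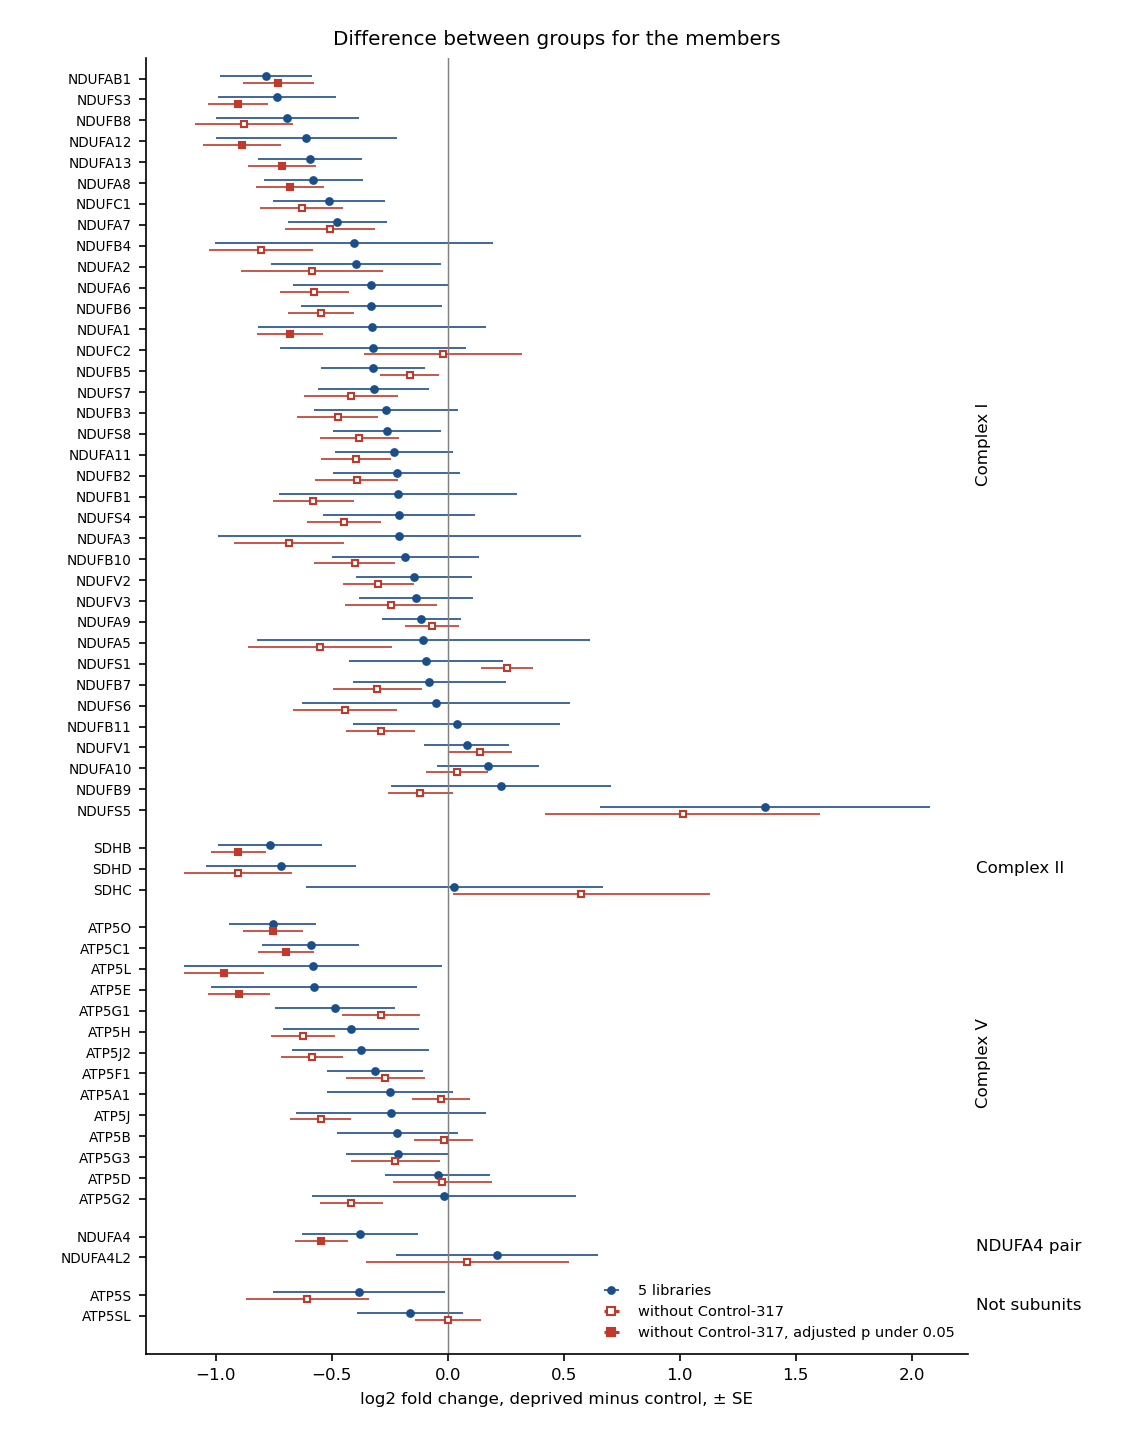
Log2 fold change of 57 of the members, deprived minus control, with its SE, over all 5 libraries (blue circles) and without Control-317 (red squares, filled where the adjusted p was under 0.05). Most rows lie left of 0 in both fits, and the 12 filled squares are all on the lower side.

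Without Control-317, 12 members, or 20.7 percent, passed the test, all of them lower in the deprived libraries, beside 3.68 percent of all genes lower and 6.46 percent higher. The median log2 fold change of the members was then -0.46 and that of all genes -0.03, with 51 members on the lower side and 7 on the higher, where all genes had 52 and 48 percent. Of the 12, 6 are in complex I (NDUFA1, NDUFA8, NDUFA12, NDUFA13, NDUFAB1 and NDUFS3), 1 in complex II (SDHB) and 4 in complex V (ATP5C1, ATP5E, ATP5L and ATP5O), and NDUFA4 is the last. Their fold changes ran from -0.97 in ATP5L to -0.54 in NDUFA4, with edgeR adjusted p-values from 0.0215 to 0.0495. SDHB fell by 0.90 ± 0.12 (SE) on the log2 scale with an adjusted p = 0.0215 and NDUFS3 by 0.90 ± 0.13 with 0.0243. ATP5E, the epsilon subunit of complex V, was at 183.0, 75.7 and 199.8 CPM in the controls and at 96.02 and 108.9 CPM in deprived animals. ATP5L, a membrane subunit, was at 79.2, 24.7 and 86.3 CPM against 37.5 and 47.1. NDUFA12 was at 37.8, 16.8 and 32.8 CPM against 18.9 and 19.2, and NDUFA1 at 62.9, 22.5 and 66.8 CPM against 40.2 and 40.7. In ATP5E, ATP5L, NDUFA12, NDUFA1 and NDUFA4 the untreated Control-317 was therefore below both deprived libraries. Only 7 of the 12 had every deprived library below every control. Striatal markers and the side in the titles follow the same division of these 4 libraries, and their part in these 12 calls was not tested.

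Relative to the mean of Control-307 and Control-331, 43 members were lower in Control-317, 51 in Deprivated-316 and 49 in Deprivated-326, and 40 were lower in all 3. The medians were -0.565, -0.525 and -0.41 on the log2 scale. Control-317 held the lowest CPM of the 5 libraries for 29 members and the highest for 13. With Control-317 and Deprivated-316 exchanged, 43 of 58 members were on the lower side, the median was -0.336 and 0 members passed the test.

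These differences varied with the length of the transcripts. Length was read from the files as the ratio of CPM to FPKM, an index that grows with the effective length of a transcript. The members are short, with a median index of 1.42 against 4.8 for all genes, and 51.7 percent of members were under 1.5, where 4.57 percent of all genes were. Over all genes tested, the median log2 fold change between the groups was -0.339 for the 655 genes with an index under 1.5, -0.219 for the 2667 between 1.5 and 3, and -0.007 for the 10995 above. The members gave -0.35, -0.313 and -0.216 in the same bins, with 30, 19 and 9 members. For genes with an index under 1.5, the median difference from Control-307 and Control-331 was -0.64 in Control-317, -0.501 in Deprivated-316 and -0.446 in Deprivated-326, and for the members in that bin -0.735, -0.596 and -0.518. Genes outside the members with an index under 1.5 gave -0.639, -0.489 and -0.444, so short transcripts at large were lower in Control-317 and in both deprived animals.

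**Figure D4:**
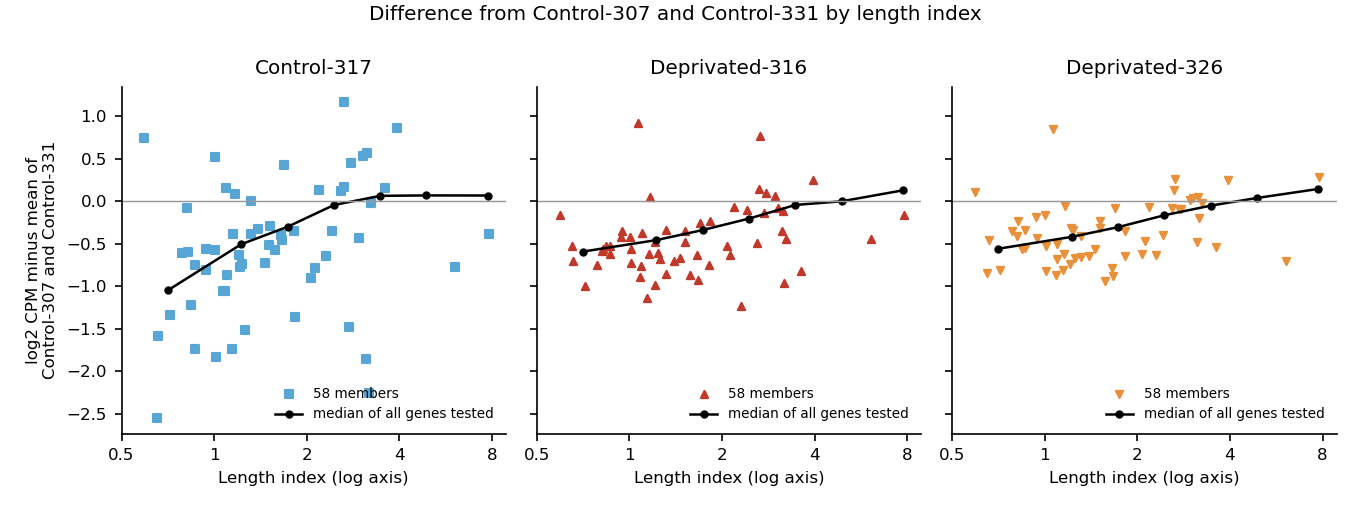
Difference in log2 CPM of each of the 58 members from the mean of Control-307 and Control-331, against the length index on a log axis, in Control-317 and the deprived libraries. The black line joins the medians of all 14317 genes tested in bins of the index. The line falls to -1.048 for the shortest genes in Control-317 and to -0.592 and -0.559 in Deprivated-316 and Deprivated-326, and most members lie around it.

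A fit with an offset for length, chosen after seeing the data, modelled this trend in each library. It left a median log2 fold change of -0.084 for the members and -0.048 for all genes, with 36 of 58 members on the lower side against 54.4 percent of genes. No member passed the test, and at an unadjusted p under 0.05 there were 2 members lower and 1 higher, against 3.93 and 5.25 percent of genes. The median was -0.024 for complex I, -0.154 for complex V and -0.535 for complex II. With the offset and without Control-317, 0 members passed, beside 2.35 percent of genes lower and 4.5 percent higher, and the median was -0.036. Under the offset with all 5 libraries, the log2 fold change was -0.60 in NDUFAB1, -0.55 in ATP5O, -0.54 in SDHB and -0.49 in NDUFS3. With the offset and without Control-317 it was -0.26 in NDUFAB1, -0.34 in ATP5O, -0.57 in SDHB and -0.55 in NDUFS3. What the length trend came from was not tested.

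The rows for complexes III and IV, outside the rule, bear on the same question. By gene number, 25 loci were matched to RefSeq names that the rule would have taken, 8 of UQCR, 16 of COX and SDHA, and 20 of them passed the filter. On the lower side were 18 of the 20, with a median of -0.301 and 0 called. Complex III summed to 908, 880 and 943 CPM in the controls and 737 and 783 in the deprived libraries, and complex IV to 1917, 1197 and 2015 against 1209 and 1255. Complex IV, the enzyme of the cytochrome oxidase stain, thus gave 1 level in Control-317 and both deprived libraries. COX4I1 (LOC102144280), a regulatory subunit of complex IV, was at 485.6, 295.6 and 506.7 CPM in the controls and 292.1 and 284.4 in the deprived libraries, with a log2 fold change of -0.57 ± 0.30. COX7A2 (LOC102126517) was at 332.8, 196.6 and 343.0 CPM against 160.4 and 171.3, with -0.81 ± 0.31 and an edgeR adjusted p = 0.497. Without Control-317, 4 loci were called lower, namely COX4I1, COX7A2, COX7B (LOC102124180) and UQCRQ (LOC102133057), beside 3.68 percent of all genes. With the length offset 0 of these loci were called, with or without Control-317, and the median over the 20 was -0.134 with all libraries. In the core of complex III, UQCRC2 (LOC102135041) was at 305.6, 366.5 and 334.2 CPM against 249.6 and 260.4, and the Rieske protein UQCRFS1 (LOC102133631) at 107.4, 116.5 and 91.8 against 119.9 and 126.0. A further locus described as like the Rieske protein, LOC102132017, was at 29.4, 0 and 29.0 CPM against 0 in both deprived libraries, so the division of reads between these loci is uncertain and no direction is read from UQCRFS1.

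Subunits that have a tissue-restricted copy were almost wholly in the widespread form. COX4I1 made up at least 99.7 percent of the COX4I pair's FPKM in each library, and COX6A1 at least 99.9 percent of the COX6A pair. COX7A1, the form best known from heart and muscle, took 2.55, 2.88 and 2.80 percent of its pair in the controls and 3.47 and 2.57 percent in the deprived libraries. COX8C was listed at 0 in all 5 libraries.

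At the level of single transcripts, 83 of the 106 rows passed the filter, 67 of them on the lower side, with a median log2 fold change of -0.267 where all 33469 transcripts had -0.047. No row passed an adjusted p of 0.05, as did 0 percent of all transcripts, and 5 rows were lower at an unadjusted p under 0.05, where 2.99 percent of all transcripts were, and 0 rows higher, where 3.42 percent were. The 4 smallest p-values belonged to the only rows of ATP5O, NDUFAB1, SDHB and NDUFS3. DESeq2 called 2 rows lower, those of ATP5O and NDUFAB1, and 0 higher, beside 1.85 and 1.21 percent of all transcripts.

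In 20 of the 22 members with several rows, the same variant had the largest count in all 5 libraries. The exceptions were ATP5C1 and NDUFV3. For ATP5C1 the curated transcript was at 175.0, 56.8 and 170.4 CPM in the controls and 98.1 and 101.8 in the deprived libraries, while variant X1 was at 2.4, 91.0 and 10.6 against 5.1 and 14.1. For NDUFV3, an accessory subunit with a long and a short form, variant X2 was at 17.2, 3.7 and 4.6 CPM in the controls and 7.8 and 6.6 in the deprived libraries, and variant X1 at 3.0, 11.9 and 15.5 against 10.4 and 8.3. Single libraries stood out elsewhere too. Variant X1 of ATP5F1, a peripheral stalk subunit, was at 55.9 CPM in Control-307 and between 0 and 7.8 in the other libraries, and variant X7 of NDUFS8, a core subunit of complex I, at 21.8 CPM in Control-307 and at most 0.7 elsewhere. The gene totals of ATP5F1 and NDUFS8 did not set Control-307 apart in this way, at 162.9, 182.3 and 172.0 CPM against 119.5 and 158.0 and at 48.2, 33.4 and 39.8 against 34.7 and 32.9. Variant X6 of NDUFS8 took 51.4, 72.8 and 74.1 percent of the gene's counts in the controls and 89.8 and 93.0 percent in the deprived libraries, with no overlap. Its own level differed little, at 25.4, 24.6 and 29.9 CPM against 30.9 and 30.2, with a log2 fold change of 0.20 ± 0.25 (SE). This variant was named after its values were seen, and how many variants have shares without overlap was not counted. The division of reads among variants was estimated by the authors' assembler, and the shares in ATP5C1, ATP5F1 and NDUFV3 overlapped between the groups.

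**Figure D5:**
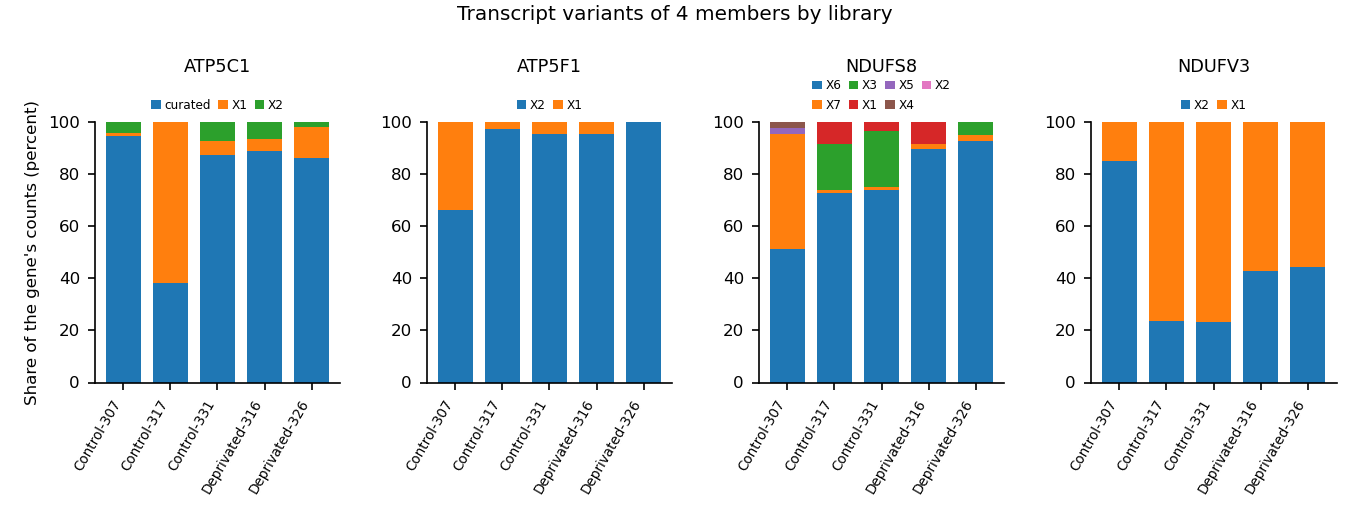
Share of a gene's counts in each transcript variant, in percent, for ATP5C1, ATP5F1, NDUFS8 and NDUFV3 in the 5 libraries. ATP5C1 is split differently in Control-317, where variant X1 holds 61.6 percent, and ATP5F1, NDUFS8 and NDUFV3 in Control-307.

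The other genes of the pathway were read from 9 lists, with 207 genes tested and 0 called in either direction. None of the genes encoded in mitochondrial DNA was in the table. The mitochondrial ribosome came nearest to the members, with 58 of 68 genes on the lower side and a median log2 fold change of -0.276. The assembly factors had 20 of 28 on the lower side and -0.21, and the electron carriers and other chain components 12 of 14 and -0.231. Ubiquinone synthesis had 7 of 12 and -0.238. The citric acid cycle with pyruvate entry had 19 of 26 and -0.085, glycolysis 13 of 19 and -0.092, import and dynamics of mitochondria 14 of 23 and -0.083, and the regulators of mitochondrial biogenesis 7 of 17 and 0.074. Several of these medians rested on Control-317. Without it the median was -0.032 for ubiquinone synthesis, with 6 of 12 genes on each side, 0.073 for the citric acid cycle, with 16 of 26 on the higher side, -0.148 for import and dynamics and 0.007 for the regulators. The length offset with all 5 libraries left 17 of 28 assembly factors on the lower side, with a median of -0.054. For the other chain components it left 8 of 14 and -0.077, where 54.4 percent of all genes were lower. Its medians for the remaining lists are not given.

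Some genes of these lists separated the groups without passing the adjusted test. COQ9, a lipid-binding protein of ubiquinone synthesis, was at 78.4, 68.1 and 86.1 CPM in the controls and 45.6 and 45.9 in the deprived libraries, a log2 fold change of -0.76 ± 0.20 with an edgeR adjusted p = 0.389. MPC1, a subunit of the carrier that brings pyruvate into mitochondria, was at 152.6, 87.9 and 129.8 CPM against 58.3 and 68.1, with -0.96 ± 0.29 and an adjusted p = 0.422. PDK4, a kinase that switches off pyruvate dehydrogenase, was at 47.5, 25.1 and 48.7 CPM against 17.7 in both deprived libraries, with -1.19 ± 0.35 and an adjusted p = 0.417. ATPIF1, the inhibitor of the ATP synthase, stood on the other side, at 24.5, 19.0 and 22.3 CPM in the controls and 30.6 and 35.4 in the deprived libraries, with 0.59 ± 0.22 and an adjusted p = 0.495. Without Control-317, 8 genes of the lists were called lower, among them COQ9, MPC1, PDK4 and the glycolytic HK2 (at most 4.12 CPM), and 4 were called higher, all in glycolysis, beside 3.68 percent of all genes lower and 6.46 percent higher. Among these 4, SLC2A3, the glucose transporter of neurons, was at 74.0, 115.2 and 74.7 CPM in the controls and at 133.2 and 121.1 CPM in deprived animals. The neuronal enolase ENO2 was at 273.2, 1698 and 362.1 CPM against 716.2 and 824.0. HK1 was at 156.8, 363.4 and 171.3 CPM against 385.0 and 324.4, and PFKP at 78.5, 158.1 and 94.3 against 169.8 and 162.4. In all 4 genes the untreated Control-317 was above Control-307 and Control-331. Glycolysis then had 14 of 19 genes on the higher side and a median of 0.271, so the medians of glycolysis and of the subunits lay on opposite sides of 0. The difference between the lists was not tested. With the length offset as well, the median of the members was -0.036, with 27 of 58 on the higher side.

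Summed markers of several cell types lay apart between the groups, while those of thalamic relay neurons, striatal neurons, astrocytes and interneurons overlapped. Their part in the values of the subunits was not tested. All 9 striatal markers were on the lower side, with a median log2 fold change of -1.38, although their sum in Control-317, 330 CPM, was below both deprived libraries. Of 7 cortical and hippocampal excitatory markers 6 were tested and all were on the higher side, with 4.4 to 14.5 CPM summed in the controls and 179 and 372 in the deprived libraries. The 7 oligodendrocyte markers were all on the lower side, at 13894, 10740 and 13414 CPM in the controls and 5723 and 9643 in the deprived libraries. Microglial markers were at 422 to 525 CPM in the controls and 356 and 362 in the deprived libraries, with 7 of 7 on the lower side, and endothelial and mural markers at 329 to 364 against 238 and 250, with 6 of 6. Choroid plexus and ependymal markers summed to 24 and 64.1 CPM in deprived animals against 85.0, 1167 and 139.5, with 6 of 6 on the lower side. Astrocyte markers were at 2378 to 2984 CPM in the controls and at 2745 and 2867 in the deprived libraries, with 4 of 6 on the lower side. Interneuron markers were at 202 to 540 CPM against 320 and 381 and those of oligodendrocyte precursors at 286 to 406 against 238 and 274, while PVALB and OLIG1 were listed at 0 in every library. None of these markers passed the test.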

How the data were processed

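RNA of the dLGN was sequenced from 5 cynomolgus monkeys, 3 control and 2 deprived, 1 library each; groups follow the deposited labels. Total RNA was enriched with oligo-dT beads and primed at random. The authors filtered reads with fastp 0.18.0 and made the estimated counts and FPKM of 62655 transcripts by reference-guided assembly in StringTie 1.3.4, using Macaca_fascicularis_5.0. HISAT2 is named as the aligner in the methods, and Bowtie2 2.2.8 stands in the submitters' processing notes. Deposited estimated counts were summed by symbol and then rounded for the tests, and deposited FPKM were summed. No coordinates or sequences are given, since no annotation of that assembly was at hand. Of the 58 symbols, 42 matched current RefSeq names (gene table of assembly T2T-MFA8v1.1), and loci under LOC numbers were named through the same table.

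Groups were compared by quasi-likelihood tests in edgeR 4.0.16 under R 4.3.3, with TMM factors and edgeR's filter on low counts. They were fitted over all 14317 genes or 33469 transcripts, with Benjamini-Hochberg adjustment and a threshold of 0.05. SE are of the log2 fold change and were derived from the test, as its absolute value over the square root of the F statistic. CPM are scaled by TMM factors, with a prior count of 2 on the log2 scale. The length index was the median over libraries of CPM by library total over FPKM, and the offset was a lowess curve (span 0.3) of log2 CPM differences on that index. Alternatives were DESeq2 1.42.0, edgeR's exact test, limma 3.58.1 on log2(FPKM + 1) and log2(FPKM + 0.1), other size factors and filters, and leaving out each library. The code was tested on simulated data. Precision is limited by the number of animals. The p-values set the group difference against the variation between libraries, estimated with information shared over all genes. With 1 library per animal, differences between animals and between tissue samples are not separated. A permutation test of 3 against 2 libraries cannot give a 2-sided p below 0.2 when the smaller tail is doubled, so none was run.

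The members, the gene lists and the alternatives were chosen with earlier results of these data known. Named members were the SDH subunits, in each other complex the 3 with the highest FPKM and the 2 with the smallest p, the 5 highest and 5 lowest fold changes at a mean log2 CPM of at least 1, the paralog pairs, the 4 transcripts with the smallest p, and up to 3 genes of each pathway list; the 12 members called without Control-317, the members near the floor and other examples were named after their values were seen. 1 member is not reported here by itself, though the totals hold it. Of 10 ways to divide 5 libraries into 3 and 2, only Control-307, Control-331 and Deprivated-316 against Control-317 and Deprivated-326 matched the printed means of all 310 transcripts read from the study's supplementary tables, and the labels' division matched 20; the labels were followed. Columns of the authors' own comparisons in those tables were not used.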

Additional observations from a re-analysis of the deposited data

How the results depend on the processing

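No paired analysis was possible because each animal has its own number in the labels and the groups share none. Counts of calls moved most. Among all genes, 0 were called in either direction with 5 libraries, 260 higher and 68 lower by DESeq2, 198 higher and 29 lower by edgeR's exact test, and 630 higher and 329 lower with the length offset and without Control-317. Leaving out 1 library at a time gave 0 to 905 higher and 0 to 515 lower, and the upper ends came without Control-317. Members called lower numbered 1 by DESeq2, and 0 to 12 when 1 library was left out, with 12 without Control-317. Member transcripts called lower numbered 2 by DESeq2. In the pathway lists 0 to 4 genes were called higher and 0 to 8 lower when 1 library was left out, the upper ends again without Control-317, and 6 higher and 5 lower with the length offset and without it.

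The median of complex I was 0.011 with the length offset and without Control-317. That of complex II ran from -0.902 to -0.444 when 1 library was left out, the latter without Deprivated-316, and was -0.333 with Control-317 and Deprivated-316 exchanged. The exchange also gave a ratio of summed member CPM of 0.961. Shares of paralogs taken from counts in place of FPKM were 16.66 percent for ATP5G1, 61.15 for ATP5G3, 98.44 for NDUFA4 and 3.93 for COX7A1.

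Of the 27 named members, 10 changed sign with the exchange: ATP5A1 (0.369), ATP5B (0.333), ATP5G1 (0.348), ATP5G3 (0.107), ATP5SL (0.172), NDUFA10 (-0.213), NDUFAB1 (0.007), NDUFB11 (-0.699), NDUFB5 (0.28) and NDUFB9 (-0.589), all log2 fold changes. With the length offset and without Control-317, ATP5A1 (0.062), ATP5B (0.085), ATP5G1 (0.212), ATP5SL (0.14) and NDUFB5 (0.158) did. ATP5G2 was at 0.079 with the length offset and, by limma, at 0.118 with a pseudocount of 1 with or without the filter and 0.137 with a pseudocount of 0.1. NDUFB11 was at -0.01 with library totals. When 1 library was left out, the log2 fold change ran from -0.415 to 0.279 in ATP5G2, -0.268 to 0.002 in ATP5SL, -0.027 to 0.43 in NDUFA4L2, -0.29 to 0.289 in NDUFB11, -0.118 to 0.458 in NDUFB9 and -0.274 to 0.575 in SDHC. None of these members was called in any setting where its sign changed, and the causes were not tested.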
